A study of Mus musculus with 8 samples.

Results

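The genes described here encode the enzymes that set the direction of glucose flux in the liver, 7 from gluconeogenesis and its control (Pcx, Pck1, Pck2, Fbp1, G6pc, Slc37a4 and Ppargc1a) and 1 from hepatic glycolysis (Pklr). They were chosen by gene symbol, and all 8 were found among the 19348 genes of the count table. Levels were measured by RNA-seq in liver and in epididymal white adipose tissue (eWAT) of male C57BL/6 mice aged 12 weeks, kept on a normal diet and fasted for 16 h before they were killed. The mice were labelled Crtc1+/+ or Crtc1-/-, from a whole-body CRISPR/Cas9 line with guides against exons 2 and 4 of Crtc1, the Crtc1-/- mice being third-generation homozygotes and the Crtc1+/+ mice their littermates. Crtc1 encodes a coactivator of the cAMP-responsive transcription factor CREB. There were 2 libraries for each tissue and genotype, 8 in all, each from an independent biological replicate by the labels, which do not tie liver and eWAT libraries to a mouse. The study's methods describe 2 mice per genotype with liver and eWAT taken from them, so the tissues probably share animals, and which libraries share one is not stated.

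Gluconeogenesis makes glucose from lactate, alanine and glycerol, mainly in the liver, and keeps blood glucose up during a fast. Most of its reactions are glycolytic ones run backwards, but the irreversible steps of glycolysis are bypassed by separate enzymes: pyruvate carboxylase (Pcx) and phosphoenolpyruvate carboxykinase (Pck1 in the cytosol, Pck2 in mitochondria) around pyruvate kinase, fructose-1,6-bisphosphatase (Fbp1) around phosphofructokinase, and glucose-6-phosphatase (G6pc) with its transporter (Slc37a4) around the first phosphorylation of glucose. Glucagon raises Pck1, G6pc and Ppargc1a transcription through cAMP, CREB and CRTC coactivators, whereas insulin represses it. In white fat, Pck1 and Pcx serve other ends, glyceroneogenesis for triglyceride synthesis and the supply of citrate for fatty acid synthesis.

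Because CREB binds the cAMP response element, the 150 bases just upstream of the start site are shown for Pck1, G6pc and Ppargc1a, the classic CREB-responsive genes of the set, from RefSeq on GRCm38.p6, 5′ to 3′ on the strand of the gene. Capitals mark the element's short form TGACG (read on the other strand as CGTCA) or a TATAAA box. The windows are chr2:173152923-173153072 (plus strand) for Pck1, chr11:101367566-101367715 (plus strand) for G6pc and chr5:51567726-51567875 (minus strand) for Ppargc1a.
Pck1: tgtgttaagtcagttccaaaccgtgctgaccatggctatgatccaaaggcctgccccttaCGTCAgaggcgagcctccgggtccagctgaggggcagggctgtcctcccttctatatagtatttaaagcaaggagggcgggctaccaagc
G6pc: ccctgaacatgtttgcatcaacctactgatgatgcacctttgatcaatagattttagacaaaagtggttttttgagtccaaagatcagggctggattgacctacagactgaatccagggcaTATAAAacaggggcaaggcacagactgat
Ppargc1a: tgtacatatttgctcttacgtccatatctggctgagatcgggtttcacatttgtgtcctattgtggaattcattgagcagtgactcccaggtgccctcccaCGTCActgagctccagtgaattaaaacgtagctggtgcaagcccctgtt

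In these windows, TGACG stood 90 to 86 bases before the Pck1 start and 49 to 45 bases before the Ppargc1a start, in both cases on the opposite strand. The Ppargc1a start used here lies inside the span of the gene given below, and the 5′ end of that span was not examined. In G6pc, TATAAA lay 29 to 24 bases before the start. All 8 genes had a promoter entry, and over 250 upstream bases read on both strands TGACG was present in 3 of the 8, namely Pck1, Slc37a4 and Ppargc1a, against 17.8% of 32851 promoters and 19.8% of 27025 genes with any entry. The full palindrome TGACGTCA, which contains TGACG, was present in 0 of the 8 and in 1.55% of promoters. The forkhead motif GTAAACA was likewise in no window of the 8 genes and in 3.17% of promoters. TATAAA was in windows of G6pc, Slc37a4 and Pklr, against 12.4% of promoters and 14.3% of genes with any entry. A match or its absence describes these letters in these windows only.

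On GRCm38.p6, Pck1 lies at chr2:173153073-173159274, Pck2 at chr14:55540263-55550020, Pcx at chr19:4510472-4621752, G6pc at chr11:101367716-101377903, Slc37a4 at chr9:44396946-44402966 and Pklr at chr3:89136122-89146815, all on the plus strand. Fbp1 at chr13:62864753-62888298 and Ppargc1a at chr5:51454249-52115853 are on the minus strand. The 8 genes are thus on 8 chromosomes.

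Library totals ran from 16560070 to 19721464 counts. Crtc1 itself was at 11.7 and 9.86 CPM (a gene's count relative to all counts of its library) in the livers labelled Crtc1+/+ and at 22.1 and 18.0 CPM in those labelled Crtc1-/-, and in eWAT at 32.6 and 33.7 CPM against 58.5 and 33.6 CPM, so its gene-level count was not lower under the Crtc1-/- label in either tissue. That count also takes reads from exons outside the targeted stretch, and for this reason genotypes are given below as labelled. Hepatocyte markers (12 genes found, among them Alb and Apoa1) took 17.2% to 21.6% of counts in liver, and none was at 0 in any library. The eWAT libraries stood apart from one another. Epididymis markers took 7.69% and 8.95% of counts in the labelled Crtc1+/+ libraries and at most 0.00432% in the labelled Crtc1-/- ones, where 5 of these markers were at 0 in each. Adipocyte markers took 0.277% and 0.416% in the former and 4.73% and 2.26% in the latter, with none of the 15 at 0. Hepatocyte markers took 0.562%, 0.067% and 0.101% in 3 eWAT libraries and 9.25% in Crtc1-/- replicate 2. In bulk tissue of this kind, fewer cells of a type and less RNA per cell cannot be told apart.

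**Figure D1:**
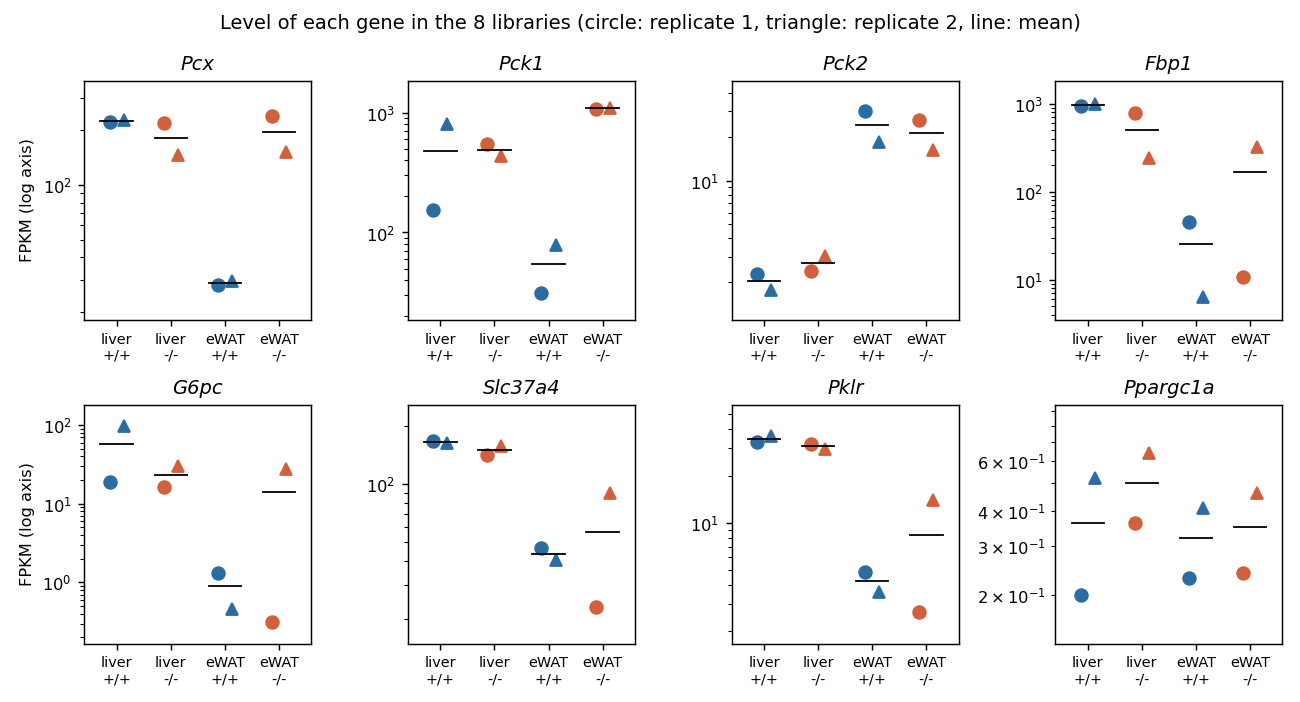
Deposited FPKM (normalised for gene length and for depth, log axis) of the 8 genes in each of the 8 libraries, with the mean of each pair as a line. Pck1 and Pcx were higher in both eWAT libraries labelled Crtc1-/- than in both labelled Crtc1+/+, while Fbp1, G6pc, Slc37a4 and Pklr were above the other eWAT libraries only in Crtc1-/- replicate 2.

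Per transcript length (FPKM, mean of 2 libraries), the order in liver labelled Crtc1+/+ was Fbp1 at 970.3, Pck1 at 481, Pcx at 225, Slc37a4 at 166, G6pc at 58.1, Pklr at 34.5, Pck2 at 2.03 and Ppargc1a at 0.36. The ranges of Pck1 and Pcx overlapped, as did those of G6pc and Pklr, and the other neighbours in this order were apart in both libraries. In liver labelled Crtc1-/- Fbp1 at 506 FPKM overlapped with Pck1 at 489.6 FPKM, Pcx with Slc37a4 and Pklr with G6pc. In eWAT labelled Crtc1-/- the order was led by Pck1 at 1087 FPKM, apart from Pcx at 196 FPKM, whereas in eWAT labelled Crtc1+/+ Pck1 at 54.7 FPKM overlapped with Slc37a4 at 43.6 FPKM. Of the phosphoenolpyruvate carboxykinase FPKM, Pck1 made up 98.5% to 99.8% in liver. Its share in eWAT was 50.9% and 81.1% under the Crtc1+/+ label, and 97.6% and 98.5% under the Crtc1-/- label.

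In liver, no member of the set passed the test between the genotypes. By the quasi-likelihood test of edgeR, with p-values adjusted for the 11707 genes tested (Benjamini-Hochberg), 0 of the 8 had an adjusted p under 0.05, which is what a called gene means here, and 0 had an unadjusted p under 0.05. Of all genes 10, or 0.0854%, were called in either direction, and 2029 had an unadjusted p under 0.05. DESeq2 also called 0 of the 8, beside 298 of all 11707 genes. With limma 0 of the 8 were called as well, but so were 0 of all genes, so that count does not set the 8 apart. The log2 fold changes (Crtc1-/- over Crtc1+/+) had a median of -0.20 over the 8 genes and 0.00 over all genes tested.

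Pcx, which makes oxaloacetate from pyruvate, was at 894 and 931 CPM in the livers labelled Crtc1+/+ (replicates 1 and 2, scaled by the trimmed mean of M-values, TMM, within the tissue) and at 863 and 563 CPM in those labelled Crtc1-/-. Both Crtc1-/- values lay below both Crtc1+/+ values, with replicate 2 the lowest. The difference was -0.36 on the log2 scale (SE 0.28, 95% interval -0.99 to 0.28, edgeR adjusted p = 0.526).

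Pck1, which turns oxaloacetate into phosphoenolpyruvate, was at 384 and 2042 CPM under the Crtc1+/+ label and at 1349 and 1037 CPM under the Crtc1-/- label. The Crtc1+/+ pair spanned the whole range, so the groups overlapped. Its log2 fold change was -0.02 (SE 0.59, 95% interval -1.35 to 1.30, edgeR adjusted p = 0.986), and 1.62 without Crtc1+/+ replicate 2. Mitochondrial Pck2 was at 5.85 and 4.93 CPM against 5.82 and 6.42 CPM, overlapping, with a log2 fold change of 0.18 (SE 0.31, edgeR adjusted p = 0.79).

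Fbp1 was at 1267 and 1361 CPM in the livers labelled Crtc1+/+ and at 1025 and 314 CPM in those labelled Crtc1-/-. The groups did not overlap, but the Crtc1-/- replicates differed from each other by 3.27-fold, and 1.01% of genes differed more. The log2 fold change was -0.97 (SE 0.46, 95% interval -2.0 to 0.06, edgeR adjusted p = 0.308). It was -2.06 with an adjusted p of 3.32e-07 without Crtc1-/- replicate 1 and -0.37 without Crtc1-/- replicate 2, so the size and the call turned on which of these libraries was kept.

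G6pc, the catalytic subunit that releases free glucose, was at 40.2 and 211 CPM under the Crtc1+/+ label and at 33.9 and 63.0 CPM under the Crtc1-/- label. Crtc1+/+ replicate 2 stood above the other 3 livers, and the groups overlapped. The log2 fold change was -1.37 (SE 0.62, 95% interval -2.78 to 0.03, edgeR adjusted p = 0.297), and it turned to 0.26 without Crtc1+/+ replicate 2. Slc37a4, which carries glucose-6-phosphate into the endoplasmic reticulum for the same reaction, was at 325 and 321 CPM against 272 and 296 CPM. These groups did not overlap, and the highest liver was 1.19-fold above the lowest, against 6.21-fold for G6pc. Its log2 fold change was -0.19 (SE 0.24, 95% interval -0.73 to 0.36, edgeR adjusted p = 0.715).

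Pklr, the liver pyruvate kinase that runs opposite to Pcx and Pck1, was at 84.6 and 92.8 CPM in the livers labelled Crtc1+/+ and at 80.6 and 73.0 CPM in those labelled Crtc1-/-. Both Crtc1-/- values were the lower ones, and the log2 fold change was -0.21 (SE 0.24, edgeR adjusted p = 0.681). The exons of Pklr share 711 of 3236 bases with Hcn3 on the opposite strand, and whether counting used strand is not given in the sources used here. Ppargc1a, a coactivator that raises the transcription of gluconeogenic genes, was at 1.28 and 3.36 CPM against 2.20 and 3.79 CPM, from 25 to 65 counts a library. The groups overlapped, with a log2 fold change of 0.37 (SE 0.52, edgeR adjusted p = 0.741). The groups were apart for 4 of the 8 genes (Pcx, Fbp1, Slc37a4 and Pklr), and 52.1% of all genes tested in liver had groups that did not overlap.

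Livers of the same label also differed from each other. Between the Crtc1+/+ replicates, Pck1 differed 5.31-fold, G6pc 5.24-fold and Ppargc1a 2.62-fold, each higher in replicate 2, while Pcx, Fbp1, Slc37a4 and Pklr differed by at most 1.10-fold. Only 0.401% of tested genes differed more than Pck1 and 0.41% more than G6pc. In all, 3 of the 8 genes were past 2-fold between these libraries, against 3.05% of all genes. Between the Crtc1-/- replicates 1 of the 8 was past 2-fold (Fbp1), against 6.74% of all genes. Of 10 other genes that fasting raises in liver, 6 were higher and 4 lower in Crtc1+/+ replicate 2 than in replicate 1. The 3 past 2-fold upward were Igfbp1 (an insulin-repressed binding protein, 6.97-fold), Lpin1 (4.36-fold) and Tat (tyrosine aminotransferase, 2.06-fold). Among those lower in replicate 2 were Pdk4, at 4.98 CPM in replicate 1 and 0.892 CPM in replicate 2, Fgf21 at 5.39 and 1.78 CPM, and Acot1 at 244 and 134 CPM. What separates these mice was not tested.

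In eWAT, Pck1 and Pcx were higher in the libraries labelled Crtc1-/-, and no other member passed the test. Of the 8 genes, 2 were called higher and 0 lower by edgeR at an adjusted p under 0.05, against 6.65% of 15391 genes called higher and 5.54% called lower. The median log2 fold change was 2.22 over the 8 genes and -0.05 over all genes tested. The groups did not overlap for these 2 genes only, and 66.6% of all genes had groups apart.

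Pck1 was at 67.8 and 176 CPM under the Crtc1+/+ label and at 2709 and 3332 CPM under the Crtc1-/- label. The 2 Crtc1-/- libraries lay close together and far above both others. The log2 fold change was 4.63 (24.7-fold, SE 0.69, 95% interval 2.84 to 6.42, edgeR adjusted p = 0.026), and it was 4.77 and 4.41 without Crtc1-/- replicate 1 or 2. Without Crtc1+/+ replicate 1 or 2 it was 4.12 and 5.50. Pcx was at 98.7 and 108 CPM under the Crtc1+/+ label and at 972 and 744 CPM under the Crtc1-/- label. The same libraries were high, with replicate 1 above replicate 2. Its log2 fold change was 3.05 (8.29-fold, SE 0.37, 95% interval 2.09 to 4.02, edgeR adjusted p = 0.0194), and 2.85 and 3.20 without Crtc1-/- replicate 1 or 2. Without Crtc1+/+ replicate 1 or 2 it was 2.99 and 3.14. Leaving out either Crtc1+/+ library ended both calls, and in those fits 0 of all genes tested were called.

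Markers of several cell types moved with these 2 genes. For adipocyte markers the median log2 fold change was 3.65, and 11 of 15 were called higher and 0 lower. Endothelial markers moved as well, with 6 of 6 called higher and a median of 3.46 (0.0283% and 0.0288% of counts under the Crtc1+/+ label, 0.372% and 0.203% under the Crtc1-/- label). Macrophage markers had a median of 2.15, with 2 of 8 called higher. Per 1000 counts of adipocyte markers, Pck1 had 27.8 and 46.3 counts under the Crtc1+/+ label and 56.3 and 120 counts under the Crtc1-/- label, both higher. Pcx had 40.5 and 28.5 counts against 20.2 and 26.9, both lower. With the libraries scaled on these 15 markers, the log2 fold change of Pck1 was 1.25 (edgeR adjusted p = 0.118) and that of Pcx -0.55 (adjusted p = 0.475), neither called. The parts of endothelial and macrophage content were not tested, and tissue makeup and genotype cannot be told apart in this design.

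Fbp1 was at 52.8 and 7.62 CPM under the Crtc1+/+ label and at 14.3 and 530 CPM under the Crtc1-/- label. G6pc was at 2.46 and 0.882 CPM against 0.660 and 72.0 CPM. In both genes Crtc1-/- replicate 1 lay within or below the Crtc1+/+ range and replicate 2 far above it. The log2 fold changes were 3.17 for Fbp1 (SE 1.77, edgeR adjusted p = 0.262) and 4.43 for G6pc (SE 2.0, edgeR adjusted p = 0.194). Without Crtc1-/- replicate 2 they turned to -1.06 and -1.33.

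Slc37a4 showed the same pattern at smaller size, with 80.4 and 72.8 CPM against 46.0 and 214 CPM. Pklr was at 10.7 and 8.30 CPM against 6.87 and 43.3 CPM, again lowest in Crtc1-/- replicate 1 and highest in replicate 2. Their log2 fold changes were 0.76 (SE 0.72, edgeR adjusted p = 0.484) and 1.39 (SE 0.88, edgeR adjusted p = 0.309), and without Crtc1-/- replicate 2 they were -0.76 and -0.49. Ppargc1a was at 1.30 and 2.39 CPM against 1.48 and 3.47 CPM, with a log2 fold change of 0.42 (SE 0.76, edgeR adjusted p = 0.716) and -0.36 without that library. Pck2 was at 67.3 and 46.9 CPM against 72.6 and 54.2 CPM. Its groups overlapped, and its log2 fold change was 0.15 (SE 0.33, 95% interval -0.70 to 1.0, edgeR adjusted p = 0.77). Between the Crtc1-/- replicates 5 of the 8 genes were past 2-fold, G6pc most at 109-fold, against 21.6% of all genes.

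**Figure D2:**
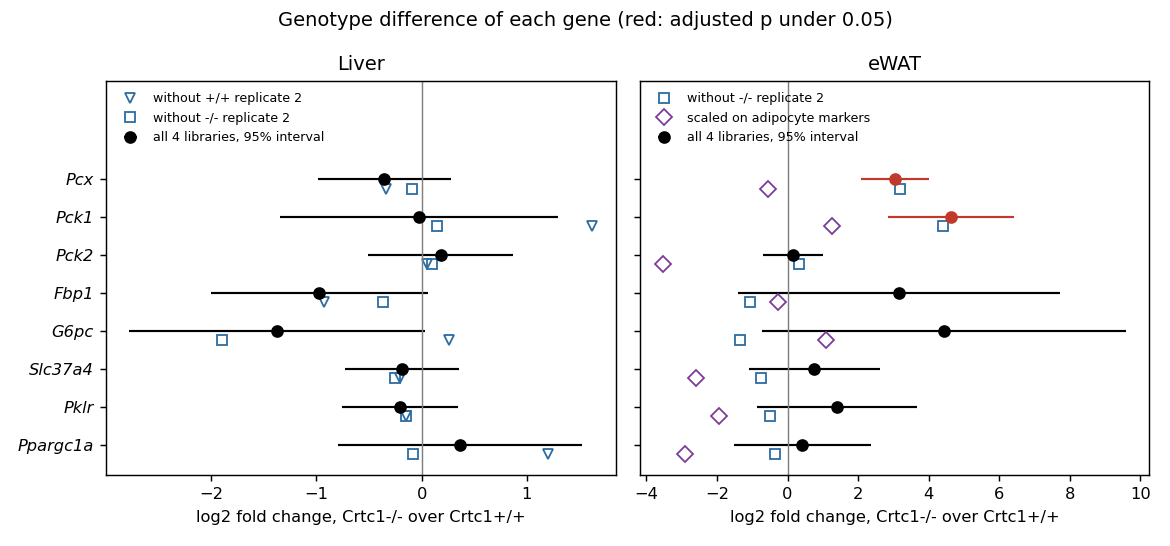
Log2 fold change of each gene, Crtc1-/- over Crtc1+/+, with its 95% interval (circles, red where the edgeR adjusted p was under 0.05), and the value with 1 library left out or with another scaling (open symbols). In liver every interval includes 0. In eWAT Pck1 (4.63) and Pcx (3.05) were called, and the values of Fbp1, G6pc, Slc37a4, Pklr and Ppargc1a changed sign without Crtc1-/- replicate 2.

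The eWAT level of each gene was then set beside that of hepatocyte markers, each as a percentage of its own mean over the 4 livers (CPM by library total). In Crtc1-/- replicate 2 the 12 markers stood at 37.1% to 65.3% of liver, median 49.9%. Fbp1 at 44.0%, Pklr at 42.8% and Slc37a4 at 57.6% fell inside that range. G6pc at 68.4%, Pcx at 75.1% and Ppargc1a at 106% lay above it, Pck1 at 227% and Pck2 at 767% far above. In Crtc1-/- replicate 1, where the markers stood at 0.385% to 1.39%, G6pc was at 0.754% and Fbp1 at 1.44%. Pcx at 118% and Pck1 at 222% were as high there as in replicate 2 or nearly so, with the marker median at 0.655%. In Crtc1+/+ replicate 1 the markers stood at 2.73% to 4.81%, with G6pc at 3.24% and Fbp1 at 6.09%. In Crtc1+/+ replicate 2 they stood at 0.212% to 0.920%, with Fbp1 at 0.849% and G6pc at 1.12%. Pck1 and Pcx stood above the markers there too, Pck1 at 6.42% and 16.1% and Pcx at 13.8% and 14.6% in Crtc1+/+ replicates 1 and 2. G6pc and Fbp1 thus followed the hepatocyte markers across the 4 eWAT libraries to within 3.12-fold of the marker median, and Pck2 did not, at 15.4-fold of it or more in every one.

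**Figure D3:**
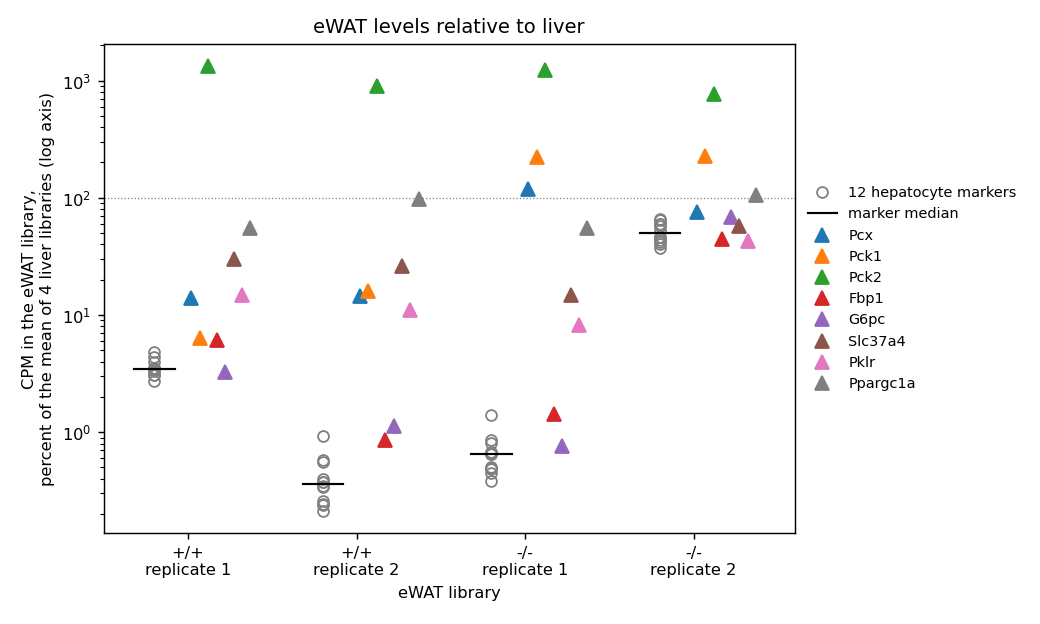
CPM in each of the 4 eWAT libraries as a percentage of the mean of the 4 liver libraries (log axis), for 12 hepatocyte markers (open circles, median as a line) and the 8 genes (triangles). G6pc and Fbp1 lie beside the marker circles in every library, whereas Pck2 lies far above them in all 4. Pck1 and Pcx lie above them in every library, most closely in Crtc1+/+ replicate 1 for Pck1 (6.42% against at most 4.81%) and in Crtc1-/- replicate 2 for Pcx (75.1% against at most 65.3%).

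Whether the genotype difference itself differed between the tissues was tested as an interaction in a fit of all 8 libraries. Of the 8 genes only Pcx passed, with a log2 difference 3.32 larger in eWAT than in liver (SE 0.57, 95% interval 1.98 to 4.66, edgeR adjusted p = 0.0209), against 3.78% of 15587 genes called in that direction. Pck1 at 4.60 (SE 1.22, edgeR adjusted p = 0.0681) and G6pc at 5.82 (SE 2.44, adjusted p = 0.182) did not pass. With DESeq2 Pck1 passed, at 4.71 (adjusted p = 0.00023). Leaving out 1 library gave 2.94 to 5.43 for Pck1, lowest without liver Crtc1+/+ replicate 2. It gave 0.006 to 6.82 for G6pc, lowest without eWAT Crtc1-/- replicate 2. Each genotype difference shares no library with that of the other tissue, but the call of Pcx was lost when any 1 of the 4 livers or of the 2 eWAT libraries labelled Crtc1+/+ was left out, with adjusted p up to 0.105.

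Between tissues under the Crtc1+/+ label, 7 of the 8 genes differed. Called higher in liver were 6 of the 8, against 19.8% of all genes, with log2 differences of 7.43 for G6pc, 6.64 for Fbp1, 4.54 for Pck1, 4.43 for Pklr, 4.36 for Pcx and 3.29 for Slc37a4. Pck2 was the 1 gene called lower in liver, by -2.19 (SE 0.26, edgeR adjusted p = 0.0013), against 35.0% of all genes. Ppargc1a at 1.55 did not pass (adjusted p = 0.108). Under the Crtc1-/- label, 2 of the 8 were called higher in liver, Pklr at 2.84 and Slc37a4 at 2.36, against 8.89% of all genes, and Pck2 again lower at -2.07, against 18.9%. Pck1 there differed by -0.06 (SE 0.82, edgeR adjusted p = 0.967). Without eWAT Crtc1-/- replicate 2, rich in hepatocyte markers, G6pc was at 7.59 and Fbp1 at 6.96 under this label, in place of 1.61 and 2.50. Of 14 alternatives, the call of Slc37a4 was lost in 8 and that of Pklr in 6. The fit treats the 8 libraries as unrelated although the tissues probably share mice. With same-numbered liver and eWAT as a replicate block, Fbp1 under the Crtc1+/+ label was no longer called (edgeR adjusted p = 0.0536), Ppargc1a was called higher in liver under both labels (adjusted p = 0.041 and 0.0483), and Pcx kept its interaction (adjusted p = 0.0489). Both tissue contrasts rest on one estimate of the spread, and the epididymis and hepatocyte marker shares given above move with them.

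The pyruvate kinase pair showed the tissue split from the glycolytic side. Pkm is the pyruvate kinase gene of most other tissues. Of the summed FPKM of Pklr and Pkm, Pklr made up 61.8% to 86.2% in the 4 livers. In eWAT it made up 1.58%, 1.44% and 1.12% in 3 libraries and 13.7% in Crtc1-/- replicate 2, the library rich in hepatocyte markers.

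The rest of the pathway was read from 84 further genes in 5 lists. In liver 0 of the 79 tested were called by edgeR, 9 had an unadjusted p under 0.05 (2029 of 11707 among all genes, of which 0.0854% were called), and the lowest adjusted p was 0.101, for Pfkfb3. That gene, which makes the fructose-2,6-bisphosphate that drives glycolysis and blocks Fbp1, was at 8.06 and 14.3 CPM under the Crtc1+/+ label and at 2.83 and 3.33 CPM under the Crtc1-/- label, without overlap (log2 fold change -1.86, SE 0.36). Among genes of substrate supply, the lactate transporter Slc16a1 had -0.85 (adjusted p = 0.203) and lactate dehydrogenase Ldha -0.94 (adjusted p = 0.219). Among shared reversible enzymes Pgam1 had -0.55 and Tpi1 -0.53, and among regulators the glucocorticoid receptor Nr3c1 had 0.81 and the insulin receptor Insr 0.64. The fasting-induced genes were led by Acot1 at -1.54 (adjusted p = 0.121) and the hormone gene Fgf21 at 1.70 (adjusted p = 0.262), and Ppargc1b, the relative of Ppargc1a, had 0.68. None of these passed. The list medians lay between -0.30 and 0.27.

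In eWAT 13 of 82 tested genes of these lists were called, 12 higher and 1 lower, beside 6.65% of all genes called higher and 5.54% called lower. Substrate supply had 4 of 18 called higher: Aqp7, the glycerol channel of adipocytes (log2 fold change 4.38), Gpd1, which links glycerol-3-phosphate to glycolysis (2.36), Ldha (2.05) and the mitochondrial pyruvate carrier subunit Mpc1 (1.61). Aqp7 rose from 14.0 and 16.8 CPM to 353 and 291 CPM. Of 25 regulators 4 were called higher, the pseudokinase Trib3 (3.19), the adipocyte and liver factor Cebpa (3.10), the CRTC kinase Sik2 (2.47) and Foxo1 (1.46). Of 17 genes at the entry and bypass steps, Pfkfb3 (2.41) and Pfkfb1 (2.11) were called higher, and of 12 shared reversible enzymes Aldoc alone was called, lower, at -2.93. Among 10 fasting-induced genes Angptl4, an inhibitor of lipoprotein lipase (4.89), and Pdk4, which restrains pyruvate dehydrogenase (3.76), were called higher. The median over the pathway genes was 0.94, and the higher adipocyte marker share stands beside these calls as it does beside Pck1 and Pcx. Scaled on adipocyte markers, 2 pathway genes were called higher and 54 lower, beside 13688 of 15391 genes called, 0.175% of them higher. The median of all genes was then -3.63.

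**Figure D4:**
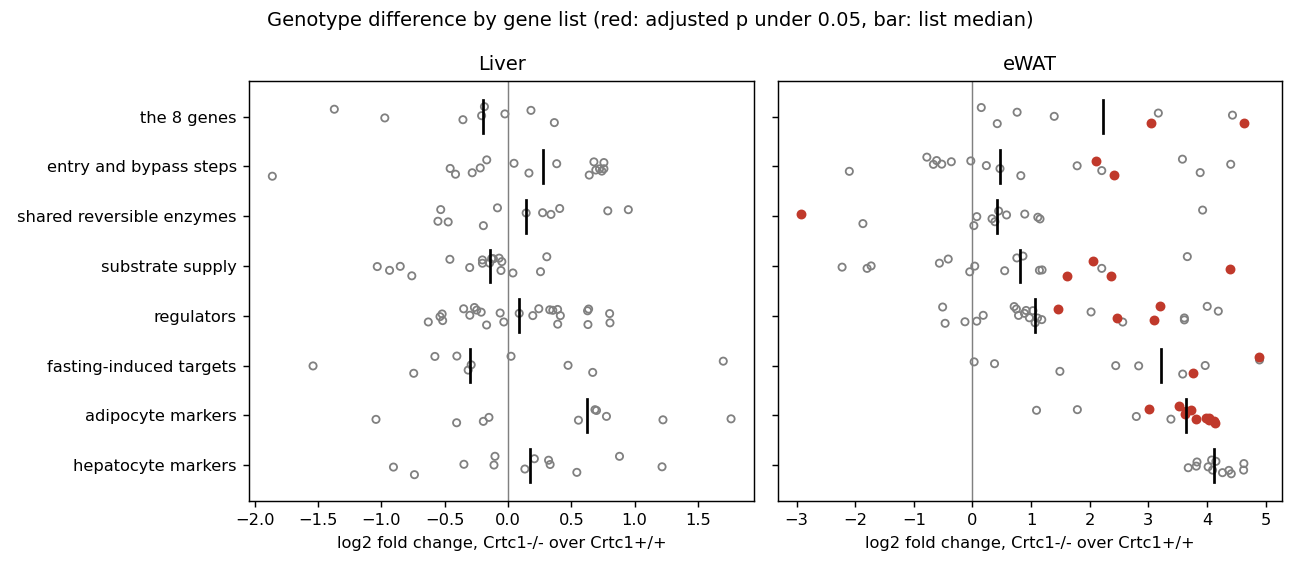
Log2 fold changes, Crtc1-/- over Crtc1+/+, of the genes tested in each list (circles, filled red where the edgeR adjusted p was under 0.05), with the list median as a bar. Liver has no filled point. In eWAT the 11 adipocyte markers called lie at 3 or above, with no adipocyte marker above 4.14. Pcx (3.05) and Cebpa (3.10) lie beside them, and Pck1 (4.63) and Aqp7 (4.38) above them. The 12 hepatocyte markers lie near 4.12 with none called.

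Across the 8 libraries, the genes whose log2 CPM followed Pck1 most closely among 7764 were Ghr, the growth hormone receptor (Pearson r 0.977), Ppp2r5a (0.977) and Cd59a (0.976). G6pc was followed most closely by Tat (0.992), Cps1 of the urea cycle (0.987) and Tdo2 of tryptophan breakdown (0.986). Without eWAT Crtc1-/- replicate 2, Tat stayed first for G6pc while Cps1 was in place 8 and Tdo2 in place 12, and the 3 genes for Pck1 held places 1 to 3. Tat also had the same order over the livers as G6pc, with 1314 and 2710 CPM under the Crtc1+/+ label and 1003 and 1399 CPM under the Crtc1-/- label. These correlations describe 8 points that share tissue and, in eWAT, tissue makeup.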

How the data were processed

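RNA-seq libraries came from liver and eWAT, 2 per tissue and genotype. The authors deposited estimated counts per gene, not normalized, and FPKM, scaled by transcript length and library total. The submitters' processing notes name HISAT, Bowtie2 and GRCm38.p6, while the counting tool, its strand setting and the annotation are not given in the sources used here. Between 5.44% and 9.98% of count values were not whole, so counts were rounded. Groups and replicate numbers were taken from the labels.

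Within each tissue, low genes were removed with filterByExpr, libraries were scaled with TMM factors, and edgeR 4.0.16 (R 4.3.3) gave quasi-likelihood p-values, which were adjusted by Benjamini-Hochberg over all genes tested. SEs are the absolute log2 fold change over the square root of F, and intervals use the t distribution of the same fit. Interaction and tissue contrasts used 1 fit of 8 libraries. The study itself used limma on normalized values, which was run on log2(FPKM + 1) as an alternative (limma 3.58.1), as were DESeq2 1.42.0, other scalings, no filter, a replicate block and leaving out each library. With 2 against 2, an exact permutation test cannot give a p under 0.333. The p-values measure the spread between 2 mice per group. Scripts were tested on simulated data. At these depths 3 counts correspond to 0.152 to 0.181 CPM.

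The members, gene lists and tests were chosen with earlier results of these data known. Named were the 8 genes, up to 4 genes per list and tissue with the largest called change (2 with the lowest p where none passed), the 3 genes most like Pck1 and G6pc, up to 4 markers a list, and Crtc1. Igfbp1, Lpin1, Pkm, Slc2a2 and, in liver, Pdk4 are shown beyond that rule and were chosen after their values were seen. Some genes of the lists are not reported here by name. The marker Tf was not matched, leaving 12 of 13 hepatocyte markers. Locations and exon overlaps come from GENCODE M21 and promoters from RefSeq, both on GRCm38.p6.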

Additional observations from a re-analysis of the deposited data

Results flagged for a closer look

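The genotype difference of Pcx was 3.32 larger on the log2 scale in eWAT than in liver, by a test of the difference itself (SE 0.57, edgeR adjusted p = 0.0209). That call was lost when any liver or either eWAT library labelled Crtc1+/+ was left out, with log2 differences from 3.04 to 3.67. Pcx was higher in 2 of 2 eWAT libraries labelled Crtc1-/- and lower in 2 of 2 such livers than in either library of the other label. Groups were likewise apart for 66.6% of all genes tested in eWAT and 52.1% in liver. The liver difference of Pcx was not called (log2 fold change -0.36, edgeR adjusted p = 0.526). Adipocyte markers were also higher in the eWAT libraries labelled Crtc1-/-. Pcx was at 40.5 and 28.5 counts per 1000 adipocyte marker counts under the Crtc1+/+ label and at 20.2 and 26.9 under the Crtc1-/- label. With the eWAT libraries scaled on those markers, the eWAT log2 fold change of Pcx was -0.55 (edgeR adjusted p = 0.475). The difference between tissues was not tested under that scaling.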

How the results depend on the processing

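Over the 40 results on single genes and their 552 alternatives, 454 kept their direction and their side of the threshold, 37 kept their direction but were no longer called, 17 kept it and became called, and 44 turned direction. Those 44 include changed calls: scaled on adipocyte markers, Pck2, Slc37a4, Ppargc1a and Pklr in eWAT were called lower and Pcx lost its call. That scaling called 13688 of all 15391 genes tested, 0.175% of them higher. The cause of each change was not tested.

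In liver the log2 fold change of Pck1, near 0, turned to 0.29 with limma (0.288 and 0.291 by pseudocount), 0.046 with upper-quartile scaling, 0.035 with library-size scaling and 0.42 with the replicate block. Leaving out 1 library gave -0.79 to 1.62 for Pck1 (0.14 without Crtc1-/- replicate 2), -2.13 to 0.26 for G6pc and -0.18 to 1.21 for Ppargc1a (-0.083 without Crtc1-/- replicate 2). It gave 0 to 1 members and 0 to 13 pathway genes called. The number called over all genes also changed in those fits. DESeq2 and no filter each called 2 pathway genes and the replicate block 1. Over all genes they called 298 of 11707, 301 of 15896 and 82 of 11707, against 10 of 11707 by the main edgeR test.

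In eWAT the replicate block called 0 members, 0 pathway genes and 0 of all 15391 genes tested. The log2 fold changes there were 4.78 for Pck1 (edgeR adjusted p = 0.0557) and 3.04 for Pcx (adjusted p = 0.0544). Same-numbered libraries deviated together little or not at all (correlations 0.0137 in eWAT and 0.0736 in liver, 0.0375 and 0.161 between tissues), which does not show that they come from different mice. Since no source ties numbers to mice across tissues, the block by number is an alternative only. Leaving out 1 library gave 0 to 6 members and 0 to 34 pathway genes called. The number called over all genes changed in the same fits as well. DESeq2 called 36 pathway genes, limma without a filter 8 and 1 fit of 8 libraries 20. Over all genes they called 4620 of 15391, 1413 of 18776 and 3861 of 15587. Scaling on adipocyte markers called 4 members, all lower, and 56 pathway genes, beside 13688 of 15391 genes, 0.175% of them higher. It gave log2 fold changes of -3.53 for Pck2, -2.59 for Slc37a4, -0.28 for Fbp1, -0.55 for Pcx, -2.90 for Ppargc1a and -1.95 for Pklr. The log2 fold change of Pck2 was -0.088, -0.090 and -0.089 with limma, -0.064 and -0.14 with upper-quartile and library-size scaling, and -0.062 and -0.067 without Crtc1+/+ replicate 2 or Crtc1-/- replicate 1. Leaving out 1 library gave -0.067 to 0.43 for Pck2, -1.33 to 5.46 for G6pc, -0.76 to 1.49 for Slc37a4, -1.06 to 5.26 for Fbp1, -0.36 to 0.94 for Ppargc1a and -0.49 to 2.19 for Pklr, each of the last 5 lowest without Crtc1-/- replicate 2. Of all genes called, 35.3% were higher with library-size and 42.8% with upper-quartile scaling.

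For the interaction, DESeq2 called 2 members, beside 1974 of 15587 genes. With 1 library left out, the number called changed both among members and over all genes, as it did in the tissue contrasts given below. Ppargc1a turned to -0.22, -0.36 and -0.16 with upper-quartile scaling, library-size scaling and the replicate block, and leaving out 1 library gave -0.83 to 0.59 (-0.83, -0.31, -0.34 and -0.68 where it turned). Leaving out 1 library also gave -0.58 to 1.70 for Slc37a4, -0.17 to 6.16 for Fbp1, -0.29 to 2.42 for Pklr, each lowest without eWAT Crtc1-/- replicate 2 (where Pck2 was 0.13), and -0.37 to 0.18 for Pck2. Between tissues, leaving out 1 library gave 4 to 7 members called under the Crtc1+/+ label and 1 to 5 under the Crtc1-/- label, where Pcx turned to -0.11 with library-size scaling and Pck1 to 0.13 and 0.23 without replicate 2 of liver or eWAT.

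Low counts limit Ppargc1a (25 to 65 per library) and G6pc in eWAT (12 to 51 in 3 libraries). All comparisons rest on the spread between 2 mice per group, and in eWAT tissue makeup cannot be told apart from genotype.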

Other observations

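Slc2a2, the glucose transporter of hepatocytes, lay between 109 and 143 CPM in the 4 livers, in eWAT at 4.62 and 0.934 CPM under the Crtc1+/+ label, and at 0.989 and 81.4 CPM in Crtc1-/- replicates 1 and 2.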
